A study of Rattus norvegicus with 10 samples.

Results

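Rbfox1 encodes an RNA-binding protein that attaches to UGCAUG elements next to alternative exons and decides whether they are kept in or skipped. It is made in neurons, heart and skeletal muscle, and its targets in muscle include genes of the contractile apparatus and of calcium handling. The gene is among the longest in mammals and uses several alternative promoters, so that its transcripts can begin far apart. The data on it here are ATAC-seq peaks, places where a transposase cut accessible DNA in isolated nuclei, listed on build rn6 between positions 7000001 and 8700000 of chromosome 10. This interval of 1.7 Mb was chosen as the Rbfox1 gene with its flanks after windows inside it had shown many more peaks in muscle than in adipose tissue. The adipose to muscle values below therefore describe it and carry no test. A peak is a distinct listed interval, and 959 of the 2119819 peaks in all lists overlapped the chosen stretch, 305 in adipose and 654 in muscle libraries. Merged where they overlapped between libraries, they formed 389 of 802351 regions.

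The libraries came from Fischer 344 rats labelled male and 8 months old, 5 from abdominal white adipose tissue and 5 from gastrocnemius muscle, each from about 75000 nuclei. The design text speaks of tissue from single animals or pooled from 15, without saying which library is which, so the spread between libraries may be partly technical. Lists held 243928 to 259149 peaks in adipose and 164283 to 188890 in muscle. The adipose lists stopped at a −log10 p of 3.26 to 4.27 and the muscle lists at 2.00. Peaks whose −log10 q reached 5, called strong below, lie above both limits. They made up 20.3% of adipose replicate 1, 33.4% to 38.1% of the other adipose lists, 69.2% of muscle replicate 5 and 52.3% to 56.3% of the other muscle lists. Adipose replicates 2, 3 and 4 had 0, 0 and 1 peaks on chromosome Y, against 31 and 45 in adipose replicates 1 and 5 and 16 to 24 in muscle. Chromosome X held 2.78% to 3.47% of the peaks of adipose replicates 2, 3 and 4, against 1.07% and 1.45% in adipose replicates 1 and 5 and 1.41% to 1.74% in muscle. The part of this in the results was not tested, and the main counts of the interval are also given with adipose replicates 1 and 5 alone. Read totals were not at hand. The lists name no genes, so the tissue labels could not be checked against marker genes.

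The placement of the gene could be checked only in part, since no annotation of rn6 was used. In the RefSeq gene table of assembly GRCr8, Rbfox1 is 2095840 bp long, which ranks it 8 by length among 23154 protein-coding genes. That is more than the 1700000 bp of the interval, so at that length the interval cannot hold the whole gene. In the order of gene starts there, the protein-coding genes just before and after it are Tmem114 and Rbm25l1. Whether either overlaps Rbfox1 was not checked. Which of the windows below lie inside the gene, and which exons or introns they hold, was not determined. The only sequence of the gene at hand is the stretch around the start of 1 of its 50 listed transcripts, and it is shown because start sites are among the places that ATAC-seq commonly finds open. It runs from 250 bases before to 50 bases after the start, on the minus strand at chr10:8999342-8999641 of GRCr8 (RefSeq). These positions cannot be set against the rn6 positions of the peaks. Capitals mark CAGCTG, a form of the E-box that myogenic factors such as MyoD are known to bind.

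Rbfox1 promoter: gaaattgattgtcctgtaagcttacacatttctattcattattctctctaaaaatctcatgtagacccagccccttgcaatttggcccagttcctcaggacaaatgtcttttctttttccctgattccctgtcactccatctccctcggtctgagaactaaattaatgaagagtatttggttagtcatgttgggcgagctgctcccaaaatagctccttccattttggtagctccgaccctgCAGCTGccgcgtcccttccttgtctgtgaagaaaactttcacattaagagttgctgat

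The CAGCTG begins at base 243 of the 300 and reads the same on both strands. It occurs, on either strand, in 15.1% of the 33469 RefSeq promoters of this length. The letters TATAAA, found in 14.2% of them, and the MEF2 and CArG box motifs, found in 3.29% and 1.64%, are absent from this window on both strands. G and C make up 43.7% of its bases, against a median of 51.7% over all promoters. A match here describes the letters and is not a measured binding site.

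Across the whole interval muscle libraries listed more peaks than adipose libraries. Adipose replicates 1 to 5 had 85, 50, 75, 53 and 42 peaks and muscle replicates 1 to 5 had 140, 141, 124, 117 and 132. Every muscle library was above every adipose library, with means of 130.8 ± 10.3 and 61.0 ± 18.2 (SD, n = 5 each) and a ratio of 2.14. Adipose replicates 1 and 5 alone averaged 63.5. For all listed peaks the lists as a whole go the other way, the adipose lists being the longer ones. For strong peaks the lists lean the same way as the interval, though with overlap. They held 89306 to 119528 in muscle and 52560 to 94767 in adipose. The adipose lists had 298639 to 299093 deposited rows each, and the muscle lists 227958 to 251869. Whether a common limit set the adipose lengths was not tested. List length also enters the scaled values that follow. Per 100000 peaks of a library, the interval held 75.1 ± 6.74 peaks in muscle and 24.4 ± 6.81 in adipose. Strong peaks numbered 60, 66, 66, 60 and 79 in the muscle libraries and 9, 23, 21, 17 and 18 in the adipose libraries, again without overlap. Muscle peaks covered 48.4 ± 4.46 kb of the interval and adipose peaks 19.1 ± 3.80 kb. The tissues are bulk samples, so more nuclei with an open site and a more open site per nucleus cannot be told apart.

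Along the interval the peaks fell into 3 stretches, set after the windows were seen: the first 300 kb with peaks in both tissues, a middle of 1 Mb with few peaks, and the last 400 kb with peaks almost entirely from muscle. The last 400 kb held 68.5 ± 4.78% of the interval's muscle peaks and 15.1 ± 7.53% of its adipose peaks. The first 300 kb held 22.5 ± 4.12% and 54.1 ± 12.3%. The tissues thus differed in where in the interval their peaks lay as well as in how many there were.

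**Figure D1:**
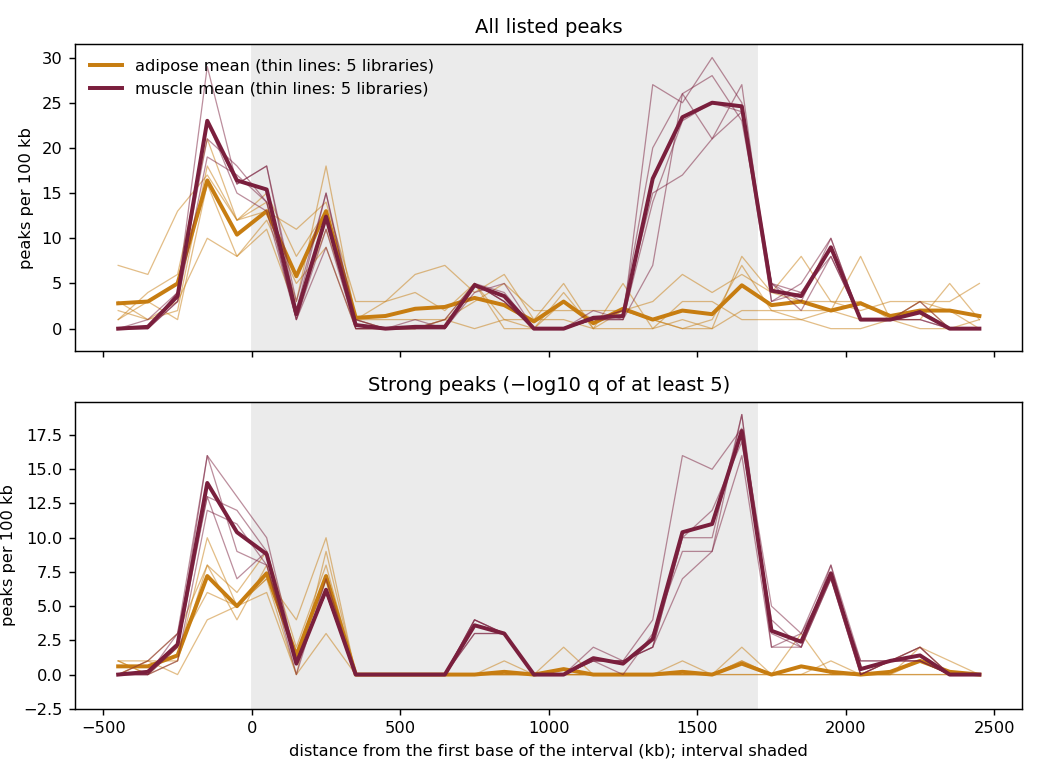
Peaks per 100 kb window (vertical axis) against distance from the first base of the interval in kb (horizontal axis, interval shaded), for all listed peaks above and strong peaks below; thin lines are single libraries and thick lines the means of 5 adipose and 5 muscle libraries. In the last 4 shaded windows the muscle means are 16.6 to 25.0 and the adipose means 1.00 to 4.80, and both tissues have peaks at the left end.

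Of the 17 windows of 100 kb in the interval, 13 had a mean of at least 1 peak over the 10 libraries. In 4 of these 13 every muscle library had more peaks than any adipose library, which is the case for 8.45% of windows on the autosomes. With adipose replicates 1 and 5 alone it was also 4 windows. In 1 of the 13 every adipose library had more, against 36.9% of windows. For strong peaks 9 windows had a mean of at least 1, of which 6 had more in every muscle library (21.6% of autosomal windows) and 0 more in every adipose library (4.67%). These shares are given as background, since the interval was chosen on this contrast. In limma's test over 25112 windows, adjusted by Benjamini-Hochberg, 29.9% of autosomal windows passed with more peaks in muscle and 43.8% with more in adipose. With adipose replicates 1 and 5 alone they were 27.1% and 36.1%. The shares were 15.2% and 53.9% when lists were not scaled to their length and 24.2% and 20.2% for strong peaks.

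The last 400 kb, from 8300001 to 8700000, held 91, 107, 86, 80 and 84 peaks in muscle replicates 1 to 5. The adipose replicates had 7, 9, 19, 9 and 3. The means of 89.6 ± 10.5 and 9.40 ± 5.90 (SD, n = 5 each) differ by a ratio of 9.53, and the lowest muscle library had more than 4 times the peaks of the highest adipose library. Adipose replicates 1 and 5, those with 31 and 45 peaks on chromosome Y, were the lowest and averaged 5.00. Strong peaks numbered 37, 41, 41, 37 and 53 in muscle and 0, 2, 2, 1 and 0 in adipose. By ratio of the means they set the tissues further apart, at 41.8, which rests on an adipose mean of 1.00. The difference of the means was smaller, at 40.8 against 80.2 for all peaks. In the lists as a whole strong peaks also leaned to muscle, with overlap. Among the 50000 strongest peaks of each library this stretch had 21.6 in a muscle library on average and was listed at 0 in each adipose library.

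Within this stretch the 4 windows averaged 16.6 to 25.0 muscle peaks, and they differed in how many of these were strong. The window from 8300001 had 20, 27, 14, 15 and 7 peaks in muscle replicates 1 to 5 and 0, 0, 3, 1 and 1 in adipose. The window from 8400001 had 26, 25, 23, 17 and 26 in muscle and 3, 1, 6, 0 and 0 in adipose. The window from 8500001 had 21, 30, 25, 21 and 28 in muscle and 3, 0, 4, 1 and 0 in adipose. Muscle replicate 5 was the lowest muscle library in the first of these and among the highest in the next pair. The window from 8600001 had 24, 25, 24, 27 and 23 in muscle and 1, 8, 6, 7 and 2 in adipose, the most adipose peaks of the 4. By mean number of muscle peaks the 4 windows stood at percentiles 87.7, 97.2, 98.3 and 98.1 of all autosomal windows with a peak, and by adipose peaks at 1.94, 4.17, 3.21 and 14.4.

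Of the muscle peaks, the strong ones made up 21.4 ± 20.2% in the window from 8300001, 44.2 ± 10.2% and 43.9 ± 5.62% in the next 2 and 72.5 ± 5.85% in the window from 8600001 (SD, n = 5 each). In the first window 4 muscle libraries lay between 7.41% and 15.0%, and muscle replicate 5 was at 57.1% with its 7 peaks. Over the last 400 kb the strong share was 40.7%, 38.3%, 47.7%, 46.2% and 63.1% in muscle replicates 1 to 5. Their whole lists had higher shares, at 52.9%, 55.3%, 56.3%, 52.3% and 69.2%. Median peak width was 224 ± 27.7 bp in the first of the 4 windows and 391 ± 57.1 bp in the last. The highest fold enrichment over the peak caller's background, a value given by the authors for each peak, was 7.84 ± 1.99, 8.87 ± 1.37, 10.3 ± 2.22 and 18.3 ± 2.88 in the 4 windows. Measured by regions called in all 5 muscle libraries, sharing was smallest in the first window and largest in the last. In the first window the 7 peaks of muscle replicate 5 limited how many regions could be called in all 5. Of the regions with a muscle peak, 3 of 54 (5.56%) in the window from 8300001 were called in all 5 muscle libraries, 13 of 47 (27.7%) and 10 of 41 (24.4%) in the next 2, and 16 of 32 (50.0%) in the window from 8600001. Over the autosomes the share was 29.8%.

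**Figure D2:**
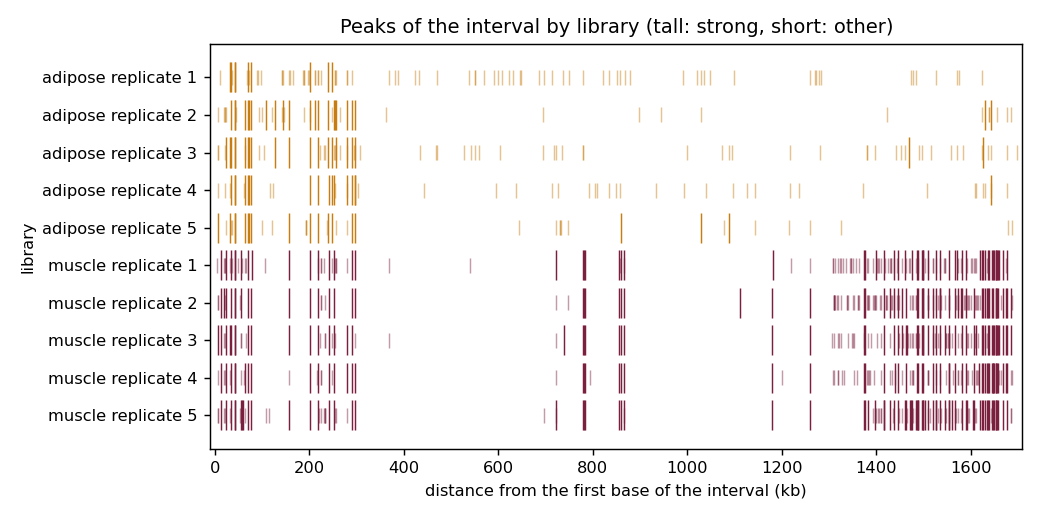
Every peak of the interval as a tick at its distance from the first base in kb (horizontal axis), 1 row for each of the 10 libraries (vertical axis), with tall ticks for strong peaks and short ticks for the others. In the last 400 kb 29 regions are strong in all 5 muscle rows, while the adipose rows hold 3 to 19 peaks each there, and adipose ticks of the middle stretch rarely line up between rows.

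The start of the stretch was marked by weak muscle peaks, with strong ones further in. By bins of 25 kb, the first 2 held 4.0 and 3.0 muscle peaks on average and no strong one, and the next 4 held 1.00, 1.60, 1.20 and 2.40 strong ones. The first muscle peak began at 8309074, 8310077, 8307495 and 8309599 in replicates 1 to 4 and at 8374606 in replicate 5. Peaks then followed at a median spacing of 1945 to 3833 bp. Peaks thinned out at the upper end of the interval, and the next 3 windows outside it had 4.20 ± 1.10, 3.60 ± 1.14 and 9.00 ± 1.00 muscle peaks and 2.60 ± 1.34, 3.00 ± 2.92 and 2.00 ± 1.22 adipose peaks. In these 300 kb past the end 12 of 52 regions were called in all 5 muscle libraries, 8 of them in no adipose library. Over the autosomes 88882 of 781477 regions were called in all 5 muscle libraries. Of those 88882, 18757 were called in no adipose library, which is 2.40% of all autosomal regions. In the 15 windows from the end of these 300 kb to 10500000 the means were 0 to 1.80 muscle peaks and 1.40 to 5.20 adipose peaks.

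Of the 174 regions of the last 400 kb with a muscle peak, 42 (24.1%) were called in all 5 muscle libraries, against 29.8% over the autosomes. Of these 42, 31 had no adipose peak in any library, against 18757 of 88882 such regions over the autosomes. Strong peaks were listed in all 5 muscle libraries for 29 of the 42, and 27 of those had no strong adipose peak. No autosomal share of such strong regions is given here. Regions called in every muscle library and no adipose library, muscle-exclusive below, numbered 36 in the whole interval (9.25% of its 389 regions, against 2.40% of the 781477 autosomal regions). With adipose replicates 1 and 5 alone they numbered 46. That count can only stay or rise, since fewer adipose libraries have to lack a peak. The share of 2.40% is for all 5 adipose libraries. Muscle-exclusive regions of the last 400 kb had a median width of 593 bp. Of the 389 regions 102 (26.2%) were called in 1 muscle library and no other, against 11.3% of autosomal regions. A further 130 (33.4%) were called in 1 adipose library and no other, against 46.4%. Both shares are of the regions of either tissue, so they also depend on how many regions each tissue has. Of the regions with a muscle peak, 45.9% had it in a single muscle library, against 44.4% over the autosomes. Of those with an adipose peak, 78.9% had it in a single adipose library, against 63.3%.

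Muscle-exclusive regions were ranked by their lowest percentile of fold enrichment in any muscle list, and the top one lay at 8668308 to 8669589, 1282 bp wide. Its fold enrichment was 18.6, 16.7, 16.5, 16.5 and 23.2 in muscle replicates 1 to 5, and that percentile was 96.6. No adipose library listed a peak there. The next by this rule lay outside the last 400 kb, at 7013446 to 7014165 with 13.3 ± 2.63 and at 7783765 to 7784528 with 11.4 ± 1.59. The next pair lay back in it, at 8566917 to 8567509 with 9.99 ± 1.91 and at 8496335 to 8496926 with 8.55 ± 1.53 (SD, n = 5 each). Muscle replicate 5 had the highest value at all 5 of these regions, and it also had the highest strong share of the muscle lists.

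The middle stretch, from 7300001 to 8300000, was thin in both tissues. Most muscle peaks there were strong and most adipose peaks were not, which also holds for each list as a whole. Muscle replicates 1 to 5 had 14, 11, 11, 11 and 12 peaks there, of which 8, 9, 9, 8 and 9 were strong. Adipose replicates 1 to 5 had 40, 5, 21, 20 and 13 peaks, of which 0, 0, 0, 0 and 3 were strong. The strong shares were 57.1%, 81.8%, 81.8%, 72.7% and 75.0% in muscle replicates 1 to 5, against 52.3% to 69.2% of whole muscle lists. In adipose replicate 5 the share was 23.1%, and whole adipose lists had 20.3% to 38.1%. All peaks overlapped between the tissues in number, and strong peaks did not. Of the 21 regions with a muscle peak 9 (42.9%) were called in all 5 muscle libraries, against 29.8% over the autosomes, and the other 12 (57.1%) in a single one, against 44.4%. Of the 89 regions with an adipose peak 81 (91.0%) were called in 1 adipose library alone, against 63.3% over the autosomes, and 82 had no muscle peak. Over the autosomes 640722 of 781477 regions had an adipose peak and 298104 a muscle peak. Most autosomal regions with an adipose peak therefore had no muscle peak either. The longest run without a peak was 314.5 to 425.5 kb in the muscle lists, and in replicates 2 to 5 it lay between 7296946 and 7722509.

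Of the 9 regions of the middle stretch called in all 5 muscle libraries, 6 stood in 2 groups of 3 and 3 stood alone. The highest was at 7856342 to 7857003, with a fold enrichment of 14.2, 17.5, 14.2, 13.8 and 22.1 in muscle replicates 1 to 5 and 3.16 in adipose replicate 1, the only adipose library with a peak there. It was followed within 10 kb by regions at 7860354 to 7860895 (6.01 ± 0.995 in muscle) and 7865157 to 7865792 (5.66 ± 0.802). The first of these also had a strong peak in adipose replicate 5, with 4.27, and the second had no adipose peak. A second group held regions at 7778400 to 7779796 (6.77 ± 1.87), 7780813 to 7781109 (3.50 ± 0.897) and 7783765 to 7784528 (given above). Only the first of the 3 had adipose peaks, with 2.98 in replicate 1 and 3.51 in replicate 3. A lone region at 8180138 to 8181303 had 12.1, 12.9, 11.9, 7.14 and 8.58 in muscle and no adipose peak. The other lone regions, at 7722310 to 7723026 (4.41 ± 2.86) and 8259236 to 8259901 (3.51 ± 0.502), each had a peak in 2 adipose libraries as well.

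**Figure D3:**
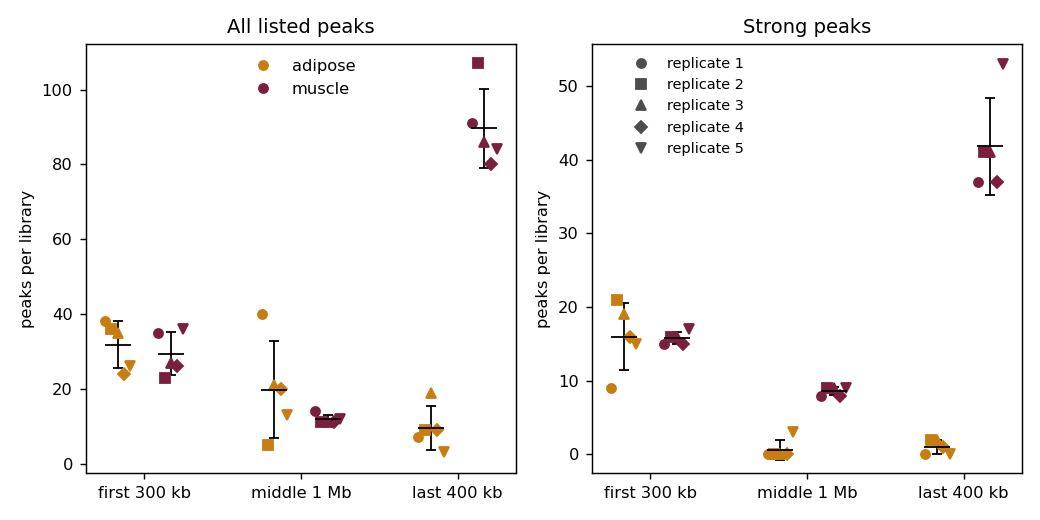
Peaks per library (vertical axes) in the 3 stretches of the interval, all listed peaks on the left and strong peaks on the right; each symbol is a library, with its shape giving the replicate, and bars show the mean and SD of 5. The tissues overlap in the first 300 kb, where strong peaks average 16.0 in adipose and 15.8 in muscle, and lie far apart in the last 400 kb at 1.00 and 41.8.

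In the first 300 kb, from 7000001 to 7300000, the numbers of peaks overlapped between the tissues. Adipose replicates 1 to 5 had 38, 36, 35, 24 and 26 peaks and muscle replicates 1 to 5 had 35, 23, 27, 26 and 36. Strong peaks numbered 9, 21, 19, 16 and 15 in adipose and 15, 16, 16, 15 and 17 in muscle. The covered length was 12.1 ± 1.69 kb in adipose and 12.0 ± 1.24 kb in muscle, so that the means differed by far less than the spread between libraries. Per 100000 peaks of a library the means stood the other way round from the raw counts, at 12.7 ± 2.38 in adipose and 16.8 ± 2.82 in muscle, and the libraries again overlapped. Just before the interval, the window from 6800001 had 16.4 ± 4.04 adipose and 23.0 ± 3.74 muscle peaks, with overlap, and that from 6900001 had 10.4 ± 2.19 and 16.4 ± 1.14, without overlap. All 9 regions of the interval called in all 10 libraries lay here (2.31% of the 389 regions, against 5.20% of autosomal regions). With adipose replicates 2, 3 and 4 left out, 11 regions were shared by all, a count that can only stay or rise with fewer libraries. The top one, at 7200215 to 7201044, had a fold enrichment of 8.80, 15.0, 17.1, 11.4 and 13.5 in adipose and 20.0, 25.1, 28.2, 26.4 and 33.1 in muscle. It was followed by regions at 7076955 to 7078195, 7240024 to 7241309, 7041122 to 7042274 and 7069967 to 7070366, with means of 10.1, 8.70, 7.16 and 4.23 in adipose and 17.3, 16.8, 16.9 and 8.03 in muscle. Fold values of different libraries are set against each library's own background and are given side by side without a comparison of accessibility.

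Adipose tissue had 1 region called in all 5 of its libraries and in no muscle library, at 7073110 to 7073403 (0.257% of the regions, against 0.741% on the autosomes). Its fold enrichment was 2.83, 3.02, 3.41, 2.86 and 4.73, its lowest percentile in an adipose list was 33.1, and it lay between the shared regions at 7069967 and 7076955. Without adipose replicate 1, or with adipose replicates 1 and 5 alone, there were 2 such regions. The single window in which every adipose library had more peaks than any muscle library ran from 8000001 to 8100000, with 5, 1, 4, 2 and 3 adipose peaks and 0 in each muscle library. Of these adipose peaks 2 were strong, both in replicate 5. Without muscle replicate 5, or with adipose replicates 1 and 5 alone, there were 2 such windows. Leaving libraries out can only keep or raise these counts of regions and windows.

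**Figure D4:**
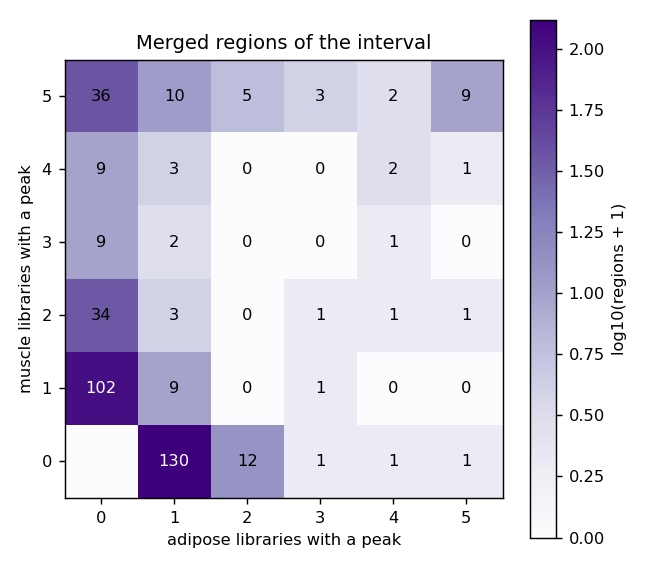
Number of merged regions of the interval for each combination of adipose libraries (horizontal axis) and muscle libraries (vertical axis) with a peak, with colour giving log10(regions + 1). The largest cells are the 130 regions of a single adipose library and the 102 of a single muscle library, and the corner with 5 muscle and 0 adipose libraries holds 36.

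Within the interval every pair of muscle libraries had more of its peak length in common than any pair of adipose libraries. As a share of the joint length of both lists (the Jaccard index), 10 muscle pairs had 0.457 to 0.524 in common, with a mean of 0.490. The 10 adipose pairs had a mean of 0.252 and ran from 0.169 to 0.324. For an adipose library set against a muscle library the 25 values had a mean of 0.133 and reached 0.177, which is above the lowest adipose pair. The lists as a whole go the same way, with 29.8% of muscle-called regions of the autosomes in all 5 muscle libraries and 9.14% of adipose-called ones in all 5 adipose libraries, beside 26.6% and 6.03% in the interval.

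Other windows rich in muscle peaks set the last 400 kb in context. Windows of chromosome 10 that start at 53.7 Mb and 45.4 Mb and a pair of chromosome 3 from 63.6 to 63.8 Mb, known from earlier results of these lists, had 38.0 ± 2.35, 36.2 ± 5.02 and 96.0 ± 8.37 muscle peaks. Their strong shares of 60.1 ± 5.49%, 42.3 ± 9.84% and 49.1 ± 7.35% spanned those of the windows from 8400001 and 8500001. The highest fold enrichment there was 6.65 ± 0.870, 6.16 ± 0.799 and 6.85 ± 1.47, and every muscle library had a higher one in the window from 8600001, where the lowest was 16.5. Median fold enrichment was 2.16 ± 0.146, 1.83 ± 0.0770 and 1.90 ± 0.0610 in these windows and 2.42 ± 0.267 to 3.52 ± 0.340 in the 4 windows of the interval. Whole muscle lists had medians of 3.17 to 4.10. The windows from 8300001, 8400001 and 8500001 lay below that range, with means of 2.60, 2.71 and 2.42, and the window from 8600001 lay within it. All of these windows were chosen with their muscle peaks known, and the difference was not tested.

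**Figure D5:**
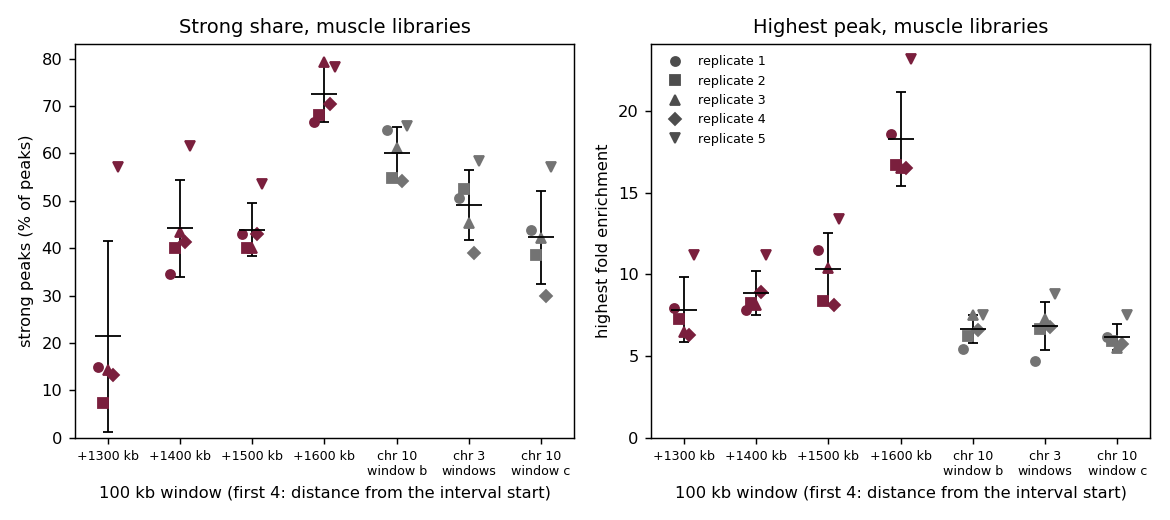
Strong share of the peaks in percent (left) and highest fold enrichment (right) in the 5 muscle libraries, for the last 4 windows of the interval, labelled by distance from its start, and for the windows of chromosome 10 at 53.7 Mb (b), chromosome 3 at 63.6 Mb and chromosome 10 at 45.4 Mb (c); shapes give the replicate and bars the mean and SD. The window 1600 kb into the interval is highest in both panels, with means of 72.5% and 18.3.

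The autosomal windows most like the window from 8500001, by Euclidean distance of log2(peaks per 100000 peaks + 0.5) over the 10 libraries, began at position 75900001 of chromosome 5 (distance 1.79) and position 66600001 of chromosome 7 (1.93). The next were the window at 53.7 Mb of chromosome 10 named above (2.07) and those from position 18400001 of chromosome 17 (2.16) and position 49800001 of chromosome 12 (2.29). These 5 windows had 20.8 to 38.0 muscle peaks and 0.600 to 3.20 adipose peaks on average, beside 25.0 and 1.60 in the window itself.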

How the data were processed

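ATAC-seq peak lists of 10 libraries were analysed, 1 list per library, on build rn6. Per the submitters' processing notes the tools were FastQC, Trimmomatic, Bowtie2, Picard and MACS2, with no version stated. Not given in the sources used here are read totals and the handling of the transposase offset, of duplicates and of mitochondrial reads. Each row deposited by the authors has a score, which is the −log10 p times 10 without its decimals for almost every peak, the fold enrichment over background, and a −log10 p and −log10 q. Rows sharing an interval were counted as 1 peak with their highest values. Peaks were put into 100 kb windows by their midpoint and those sharing 1 bp or more between libraries were joined into regions. Windows on the autosomes with a mean of at least 1 peak were tested with limma 3.58.1 (R 4.3.3; trend) on log2(peaks per 100000 + 0.5), as background only. Python 3.11.15, NumPy 2.4.6, pandas 2.3.3, SciPy 1.17.1 and matplotlib 3.10.9 were used; the window and region code was tested on simulated data. Named regions are up to 5 per call pattern with the best worst percentile of fold enrichment. The interval, windows and lists were chosen with earlier results of these data known. Alternatives tried were strong peaks, a common −log10 p floor of 4.27, the 50000 strongest peaks, scaling, row counts, a replicate block, adipose replicates 1 and 5 alone, a 100 bp overlap and leaving out each library. Peak sequences on rn6 were not analysed here.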

Additional observations from a re-analysis of the deposited data

Results flagged for a closer look

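Over 74 sets of 5 libraries of 1 tissue, 9 extreme values were separated from the next library by a gap above 0.71 of the whole range. Chance alone sets apart about 1 in 20 sets, and sets of small whole numbers with ties are easily set apart. The values are given without an explanation.

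Adipose replicate 5 had 3 strong peaks in the middle stretch, where the other adipose libraries had 0. Muscle replicate 5 had 53 strong peaks in the last 400 kb, above the 37 to 41 of the other muscle libraries, and the highest fold enrichment in muscle at 7783765 (14.2) and at 8496335 (11.2). In the window from 7600001 to 7700000 adipose replicate 1 had 7 peaks, the most in adipose, and muscle replicate 5 had 1 where the other muscle libraries had 0. Muscle replicate 1 had 1 peak from 7500001 to 7600000, where the other muscle libraries had 0, and 4 from 7700001 to 7800000, where the others had 5. Muscle replicate 2 had 2 peaks from 8100001 to 8200000, where the others had 1.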

How the results depend on the processing

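Of 144 values under alternatives, 122 stayed within the spread or 1.5 times of the main value, 22 moved and 0 turned; the stretch of the last 400 kb and its alternatives were added after seeing the data. The difference in peaks of the interval, adipose minus muscle, was -69.8 and became -48.6 for strong peaks, -43.6 at the common floor, -23.2 for the 50000 strongest, -50.7 per 100000 peaks and -99.0 in deposited rows. That of the last 400 kb was -80.2 and became -40.8, -51.8, -21.6, -47.8 and -104.0 in the same order. These settings count fewer, scaled or more peaks by construction. Windows without overlap and muscle higher were 4. Among all 17 windows they were 7 for strong peaks, 6 for the 50000 strongest, 6 per 100000 peaks and 5 in deposited rows. Those with adipose higher were 1, with 0 for strong peaks and for the 50000 strongest, and 2 with adipose replicates 1 and 5 alone or with same-numbered differences all of one sign (the replicate block). Adipose-exclusive regions were 1, with 0 for strong peaks and 2 with adipose replicates 1 and 5 alone. Windows passing limma's test were 7499 with muscle higher and 10994 with adipose higher; unscaled, 3808 were higher in muscle, and for strong peaks 4103 in muscle and 3417 in adipose. The median log2 difference of all windows was 0.34 scaled and 0.84 unscaled.

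Leaving out 1 library gave -75.8 to -65.05 for the interval and -82.6 to -75.85 for the last 400 kb, 4 windows with muscle higher in each case, 1 to 2 with adipose higher (2 without muscle replicate 5), 36 to 40 muscle-exclusive, 1 to 2 adipose-exclusive (2 without adipose replicate 1) and 9 to 10 shared regions, and 7082 to 7602 and 10555 to 11177 windows by limma. Counts of windows without overlap and of exclusive or shared regions can only stay or rise when libraries are left out. Rats carry the numbers 1 to 5 in either tissue's titles, which do not say that a number is 1 animal. The numbers were therefore not taken as pairs. Deviations of same-numbered libraries correlated at -0.115 to 0.0536 over windows. These values cannot tell whether a number is 1 animal, since technical spread could hide it. With the replicate block limma passed 7428 and 10962 windows. Read totals were not given, so a missing peak says that none was listed, not that a site is closed.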
